A study of Homo sapiens with 12 samples.

Results

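The genes described here encode the MHC class I antigen presentation pathway, and were taken by name as a set of 9: HLA-B, HLA-C, HLA-E, HLA-F, B2M, TAP1, TAP2, TAPBP and NLRC5. They are 9 of the 58037 gene identifiers in the count table, each found through its Ensembl identifier, and 8 of the 9 had a count above 0 in at least 1 sample. RNA-seq had been performed on 2 human prostate cancer cell lines, DU-145 and LNCaP-AI, both carrying a doxycycline-inducible shRNA against MUC1 (tet-MUC1shRNA) in a puromycin-selected lentiviral vector. DU-145 is a line derived from a brain metastasis, and LNCaP-AI is an androgen-independent line that the study derived from C4-2B, itself descended from LNCaP, by prolonged culture without androgens. The 4 groups were DU-145 vehicle, DU-145 DOX, LNCaP-AI vehicle and LNCaP-AI DOX, with 3 samples each. Vehicle was DMSO, DOX was doxycycline at 500 ng/ml for 7 days. The labels give phenol red-free medium with charcoal-stripped serum for both lines, whereas the methods give it for LNCaP-AI and medium with ordinary fetal bovine serum for DU-145, so a difference of medium and a difference of line cannot be told apart. The labels name the same groups control shRNA and MUC1 shRNA. No group combined DOX with a non-targeting shRNA, so silencing of MUC1 and DOX itself cannot be told apart.

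In this pathway the proteasome cuts cytosolic proteins into peptides, the TAP1-TAP2 transporter carries these peptides into the endoplasmic reticulum, and tapasin (TAPBP) helps to load them onto a heavy chain (HLA-B or HLA-C, for instance) paired with beta-2-microglobulin (B2M). The loaded complex travels to the cell surface, where CD8 T cells read the peptide and natural killer cells sense the heavy chain itself. NLRC5 is the transactivator of these genes, which it reaches through the RFX, NF-Y and CREB/ATF proteins on the X and Y boxes of their promoters, and interferons and NF-kB raise the same genes through nearby sites. Loss of class I genes is a known route by which tumor cells, those of the prostate among them, become invisible to T cells.

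The promoters of 4 members are printed because these genes carry the results below: HLA-B and HLA-C lay in opposite order between the lines, B2M rose with DOX in DU-145, and TAP1 is the transporter subunit that was measured. Each run holds the 250 bases before the RefSeq start site (GRCh38.p14), written in the direction of transcription. Capitals mark the letters of any motif searched on either strand.
HLA-B, chr6:31357180-31357429, minus strand: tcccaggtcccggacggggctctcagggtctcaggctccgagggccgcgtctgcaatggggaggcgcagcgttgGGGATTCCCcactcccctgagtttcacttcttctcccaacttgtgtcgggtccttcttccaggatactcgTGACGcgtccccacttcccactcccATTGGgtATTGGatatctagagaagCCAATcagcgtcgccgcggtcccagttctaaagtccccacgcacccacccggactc
HLA-C, chr6:31272093-31272342, minus strand: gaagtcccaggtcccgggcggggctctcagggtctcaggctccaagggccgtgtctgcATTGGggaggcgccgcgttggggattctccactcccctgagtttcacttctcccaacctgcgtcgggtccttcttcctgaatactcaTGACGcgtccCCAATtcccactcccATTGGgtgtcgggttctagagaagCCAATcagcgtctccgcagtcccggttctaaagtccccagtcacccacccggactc
B2M, chr15:44711267-44711516, plus strand: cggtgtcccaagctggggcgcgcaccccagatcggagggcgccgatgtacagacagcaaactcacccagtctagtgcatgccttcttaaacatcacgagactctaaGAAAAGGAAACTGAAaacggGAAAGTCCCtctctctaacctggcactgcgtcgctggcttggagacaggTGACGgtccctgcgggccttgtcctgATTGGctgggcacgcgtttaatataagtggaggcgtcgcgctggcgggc
TAP1, chr6:32853705-32853954, minus strand: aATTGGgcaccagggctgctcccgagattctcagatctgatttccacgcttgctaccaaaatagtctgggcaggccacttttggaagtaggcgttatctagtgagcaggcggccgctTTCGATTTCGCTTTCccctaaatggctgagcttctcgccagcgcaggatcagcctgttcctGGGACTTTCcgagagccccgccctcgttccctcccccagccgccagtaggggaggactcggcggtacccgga
The motifs were the Y box (CCAAT), the core of the X2 box (TGACG), an interferon-stimulated response element (ISRE, GAAANNGAA), a gamma-interferon activation site (GAS, TTCNNNGAA), 2 kB sites (GGGATTCCC and GGGANTTTC) and the E box (CACGTG). HLA-B held the X2 core 106 to 102 bases before its start, 3 Y boxes between 81 and 52 bases before it, and the kB letters GGGATTCCC from 176 to 168 bases before it. HLA-C held the X2 core at nearly the same place, from 105 to 101 bases before its start, and 4 Y boxes, but neither set of kB letters. B2M combined an X2 core and a Y box with 2 overlapping ISRE matches and a match to GGGANTTTC, and TAP1, in the upstream one of its 2 RefSeq windows, held 2 overlapping ISRE matches, the second set of kB letters and a Y box at the far end of the window. Over all 35116 promoters in the RefSeq table, the same 250 bases held a Y box in 32%, an X2 core in 21.2%, an ISRE in 6.88%, a GAS in 6.57%, an E box in 6.34%, GGGATTCCC in 0.362% and GGGANTTTC in 1.12%. Promoters were also read for HLA-F, TAP2 and TAPBP, and each of these held an ISRE match. No printed promoter held the E box letters. A match is a description of letters and does not show that a factor binds there.

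Total counts ranged from 10423437 to 13544153 in DU-145 and from 16569613 to 26961777 in LNCaP-AI, and the 9 genes took between 0.00963% and 0.0222% of them. Levels are given as counts per 1000000 counts (CPM) scaled by TMM over all 12 samples, and 3 counts, taken as the floor, came to at most 0.304 CPM in DU-145 and 0.171 CPM in LNCaP-AI. MUC1 had 74, 60 and 59 counts in DU-145 vehicle samples and 3 in each DOX sample, and 36, 25 and 52 counts in LNCaP-AI vehicle samples against 8, 6 and 3 with DOX. Its log2 fold changes were -4.39 (SE 0.315, adjusted p = 1.37e-09) and -2.50 (SE 0.330, adjusted p = 0.0139) by edgeR's quasi-likelihood test, with all DOX samples below all vehicle samples in both lines. MUC1 passed the filter on low counts only through the vehicle samples, and the LNCaP-AI call was lost without DOX 2 or DOX 3 (adjusted p = 0.0854 and 0.0829). The LNCaP-AI samples did not divide by treatment on their first principal component (80.5% of the variance): vehicle 1, DOX 2 and DOX 3 (set 1) lay opposite vehicle 2, vehicle 3 and DOX 1 (set 2). Neither the labels nor the methods give a reason for this division. The 4 epithelial markers were present in every group, summing to 869 to 2133 CPM, whereas 3 of 4 prostate luminal markers (KLK3, KLK2 and FOLH1) were at 0 in DU-145. Leukocyte markers, which would bring class I transcripts of their own, summed to at most 1.49 CPM in any sample. Fibroblast markers summed to 20.8 to 27.8 CPM in LNCaP-AI and to at most 4.08 CPM in DU-145. In LNCaP-AI this sum was mostly COL1A1 (16.5 to 23.0 CPM) and PDGFRB (3.21 to 5.53). DCN had at most 1.07 CPM there and COL1A2 at most 1 count. Endothelial markers summed to 4.76 to 8.68 CPM in LNCaP-AI and to at most 0.630 CPM in DU-145. In LNCaP-AI VWF had 2.78 to 7.83 CPM and PECAM1 0 to 2.53, whereas CDH5 had at most 1 count. Whether other cell types were present was not tested. Counts come from bulk cultures, so fewer expressing cells and less RNA per cell cannot be told apart.

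Before silencing, the lines differed in most of the class I genes, as they did in most of all genes tested. Of the 8 members tested between the vehicle samples, 5 were higher in DU-145 (B2M, HLA-B, TAPBP, HLA-E and TAP1), 2 were lower (HLA-C and NLRC5), and HLA-F did not pass the test. Among all 15628 genes tested, 30.2% were higher and 35.0% lower in DU-145. The LNCaP-AI vehicle samples came from both sets (vehicle 1 from set 1, vehicles 2 and 3 from set 2), so the line comparison spans that division. The calls of HLA-E and TAP1 were lost when single samples were left out. HLA-C had 16 counts at most in DU-145 and passed the filter on low counts (10 counts in 3 samples) only through LNCaP-AI, where it was high, so its call is given as a description and not read as a test. B2M stood 3.23-fold higher in DU-145 and HLA-B 3.61-fold higher.

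**Figure D1:**
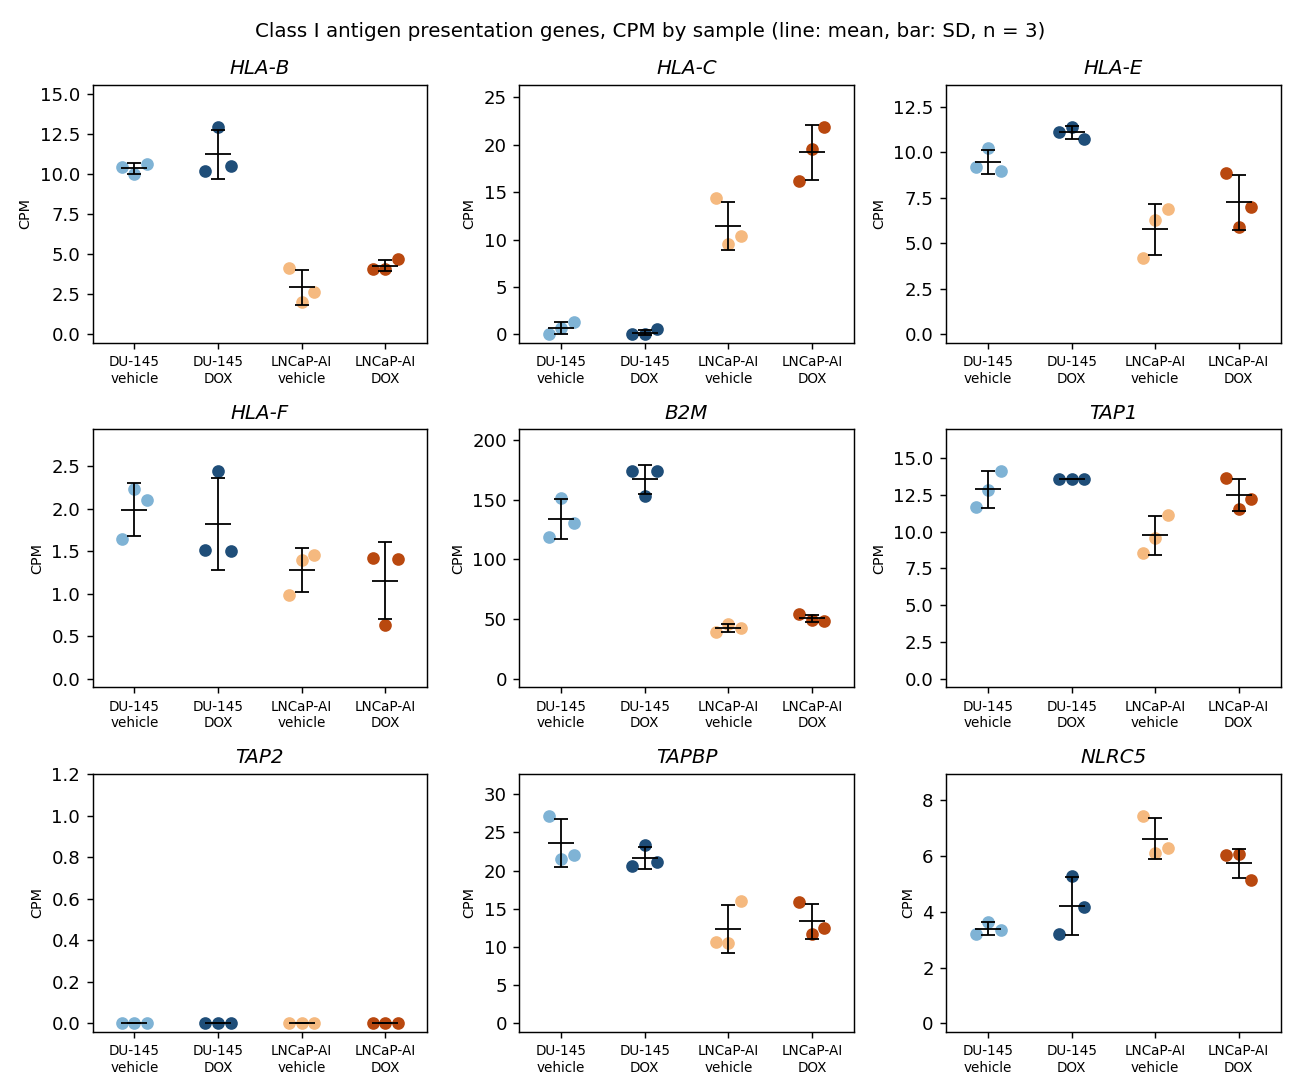
Each panel shows 1 gene, with CPM on the vertical axis and a point for each of the 3 samples in the 4 groups. Horizontal lines are group means and bars the SD. B2M is at 119 to 174 CPM in DU-145 and 39.0 to 54.0 in LNCaP-AI, HLA-C is near 0 in DU-145 only, and TAP2 is listed at 0 in every sample.

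B2M, the light chain shared by all class I molecules (chr15:44711358-44718851 of GRCh38, plus strand), was the member with the highest level, also per transcript length. The DU-145 vehicle samples had 119, 151 and 131 CPM, and the DU-145 DOX samples had 174, 153 and 174 CPM. All 3 DOX samples were above all 3 vehicle samples, though vehicle 2 and DOX 2 were close. B2M rose by a log2 fold change of 0.33 (SE 0.0852, 95% interval 0.15 to 0.51, adjusted p = 0.00322), or 1.26-fold, from 134 ± 16.6 to 167 ± 11.9 CPM (mean ± SD, n = 3). The median absolute log2 fold change over all 13644 genes in this comparison was 0.300, so the rise was near the size common to all genes. In LNCaP-AI the vehicle samples had 39.0, 45.8 and 42.5 CPM and the DOX samples 54.0, 49.1 and 48.6. Again each DOX sample was above each vehicle sample, but the log2 fold change of 0.23 (SE 0.0910, 95% interval 0.01 to 0.45) did not pass over all genes (adjusted p = 0.151). The 2 DOX effects on B2M differed by -0.07 (LNCaP-AI minus DU-145, 95% interval -0.38 to 0.25, adjusted p = 0.836). Between the lines at baseline the log2 difference was 1.69 (SE 0.124, adjusted p = 3.58e-05).

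HLA-B, a classical heavy chain that presents peptides to CD8 T cells (chr6:31353872-31367067, minus strand), was also separated by line. The DU-145 vehicle samples had 10.5, 10.0 and 10.7 CPM and the DOX samples 10.2, 13.0 and 10.6, so the groups overlapped and 1 DOX sample stood above the rest. The log2 fold change with DOX was 0.12 (95% interval -0.15 to 0.40, adjusted p = 0.449). In LNCaP-AI the vehicle samples had 4.15, 2.03 and 2.64 CPM against 4.07, 4.11 and 4.74 with DOX. Vehicle 1, of set 1, lay within the DOX range, while vehicles 2 and 3 lay below it, and the log2 fold change of 0.52 (95% interval -0.20 to 1.24) did not pass (adjusted p = 0.293). At baseline HLA-B was higher in DU-145 by 1.85 on the log2 scale (SE 0.274, adjusted p = 0.000837).

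HLA-C, the second classical heavy chain measured here and a ligand of killer cell immunoglobulin-like receptors (chr6:31268749-31272130, minus strand), showed the reverse order. DU-145 vehicle samples had 0, 7 and 16 counts and DU-145 DOX samples 0, 1 and 6, which left the gene below the filter for the DOX test in that line. In LNCaP-AI the vehicle samples had 14.4, 9.58 and 10.4 CPM, and the DOX samples had 16.2, 19.6 and 21.9. Every LNCaP-AI sample was therefore far above every DU-145 sample, and the LNCaP-AI DOX samples were all above the vehicle samples. The fitted baseline log2 difference was -4.02 (DU-145 minus LNCaP-AI, 95% interval -5.68 to -2.36), a description only, and it was -3.37 without DU-145 vehicle 1 and -5.02 without DU-145 vehicle 3. With DOX in LNCaP-AI the log2 fold change was 0.72 (SE 0.212, 95% interval 0.20 to 1.23), the largest of the 8 members tested in that line, with an adjusted p of 0.077 from edgeR and of 0.0135 from DESeq2. Without LNCaP-AI vehicle 1 the adjusted p from edgeR was 0.0323, and without LNCaP-AI DOX 1 it was 0.0245. HLA genes are highly polymorphic and the 2 lines carry different alleles, whereas the reads were aligned to a single reference; the part of this in the line differences of HLA-B and HLA-C was not tested. Comparisons of DOX with vehicle are made within 1 line and share its alleles. In the reference transcripts, 2.56% of the 50-base words of HLA-B and 6.76% of those of HLA-C also occurred in another gene.

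HLA-E and HLA-F are nonclassical heavy chains: HLA-E displays signal peptides of other class I chains to the NKG2A receptor of natural killer cells. HLA-E (chr6:30489509-30494194, plus strand) had 9.18, 10.2 and 8.99 CPM in DU-145 vehicle samples and 11.1, 11.4 and 10.7 with DOX. The DOX samples were all higher, by 0.24 on the log2 scale (95% interval -0.02 to 0.50), without passing the test (adjusted p = 0.117). The LNCaP-AI values were 4.20, 6.26 and 6.88 with vehicle and 8.88, 5.89 and 6.99 with DOX, which overlapped (log2 fold change 0.30, adjusted p = 0.461). HLA-E was higher in DU-145 at baseline by 0.75 (SE 0.218, adjusted p = 0.0191), a call lost without DU-145 vehicle 1, DU-145 vehicle 2 or LNCaP-AI vehicle 2 (adjusted p of up to 0.0659). HLA-F (chr6:29722775-29738528, plus strand) was the lowest heavy chain in LNCaP-AI, between 0.628 and 1.46 CPM, and had 1.51 to 2.44 CPM in DU-145. Its groups overlapped in both DOX comparisons (log2 fold changes -0.09 and -0.16, adjusted p = 0.809 and 0.775), and the baseline difference of 0.67 did not pass (adjusted p = 0.0558).

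TAP1, an ATP-binding subunit of the peptide transporter (chr6:32845209-32853816, minus strand), had 11.6, 12.9 and 14.1 CPM in DU-145 vehicle samples and 13.6, 13.5 and 13.6 with DOX. Those DOX samples lay inside the vehicle range (log2 fold change 0.08, 95% interval -0.16 to 0.33, adjusted p = 0.582). In LNCaP-AI the values were 8.52, 9.58 and 11.2 CPM with vehicle and 13.6, 11.5 and 12.2 with DOX. All DOX samples were higher, by 0.33 (SE 0.148, 95% interval -0.03 to 0.69), but the gene did not pass (adjusted p = 0.194). The baseline difference of 0.44 (SE 0.165) passed narrowly (adjusted p = 0.0495). That call was lost when any 1 of the 6 vehicle samples was left out (adjusted p from 0.0539 to 0.167). TAP1 overlaps PSMB9 on the opposite strand, and the strand setting of the counting was not stated, so reads of the 2 genes may not be fully separated.

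TAP2, the other transporter subunit (chr6:32821833-32838739, minus strand), was listed at 0 in all 12 samples. A protein-coding gene of the annotation on the same strand, ENSG00000250264, shares 19.5% of the TAP2 exon bases and was also listed at 0. Of the 50-base words in the TAP2 reference transcript 35.3% occurred in another gene. TAP2 thus belongs to the protein-coding genes that share up to 50% of their exon bases with another gene on the same strand. Of these, 148 of 2707 (5.47%) were at 0 in all samples. The share at 0 was 1763 of 16161 (10.9%) without shared exon bases and 360 of 761 (47.3%) with over 50% shared. HLA-B, with 32.7% of its exon bases shared, was not at 0. How the authors' counting treated shared reads was not stated, and whether this or lack of expression gave the zeros of TAP2 was not tested.

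TAPBP, the tapasin gene, whose product bridges the transporter and the empty class I molecule (chr6:33299694-33314284, minus strand), had 27.2, 21.6 and 22.1 CPM in DU-145 vehicle samples and 20.6, 23.3 and 21.1 with DOX. The groups overlapped, with vehicle 1 the highest (log2 fold change -0.12, adjusted p = 0.357). LNCaP-AI had 10.6, 10.5 and 16.0 CPM with vehicle and 15.9, 11.7 and 12.5 with DOX, also overlapping (log2 fold change 0.08, adjusted p = 0.810). TAPBP was higher in DU-145 at baseline by 0.96 (SE 0.203, adjusted p = 0.00453).

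NLRC5, the transactivator of the class I genes (chr16:56989485-57083531, plus strand), lay in the opposite order between the lines to the 5 members called higher in DU-145 (B2M, HLA-B, TAPBP, HLA-E and TAP1). Of these calls, those of HLA-E and TAP1 were lost when single samples were left out. HLA-C, described but not read as tested, lay in the same order as NLRC5. DU-145 vehicle samples had 3.20, 3.64 and 3.36 CPM, and LNCaP-AI vehicle samples had 7.45, 6.10 and 6.29. NLRC5 was lower in DU-145 by 0.92 on the log2 scale, or 1.90-fold (SE 0.183, 95% interval -1.35 to -0.49, adjusted p = 0.00339), with no overlap between the lines. With DOX the DU-145 samples had 3.21, 5.28 and 4.17 CPM and the LNCaP-AI samples 6.03, 6.06 and 5.13. The first overlapped its vehicle group (log2 fold change 0.34, 95% interval -0.11 to 0.78, adjusted p = 0.198), and the second lay wholly below it (-0.23, 95% interval -0.63 to 0.16, adjusted p = 0.390). The difference between these DOX effects was -0.52 (95% interval -1.11 to 0.07, adjusted p = 0.258).

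The members called with DOX are given beside the shares of all genes called. In DU-145, 1 of 7 members tested was called higher (B2M) and 0 lower, where 26.3% of all 13644 genes tested were higher and 25.3% lower. In LNCaP-AI, 0 of 8 members were called, where 7.22% of 16030 genes were higher and 5.52% lower, a share at which 0 of 8 is no result about the members. Their median log2 fold change was 0.27 against -0.05 over all genes. Of these 8, HLA-C and B2M (2 members) had an unadjusted p under 0.05 in edgeR, and DESeq2 called 1, HLA-C. With the set on the first principal component as a covariate, edgeR called 4 of the 8 members higher in LNCaP-AI. These were HLA-C (log2 fold change 0.58, adjusted p = 0.000213), HLA-E (0.48, adjusted p = 0.0116), B2M (0.28, adjusted p = 0.0116) and TAP1 (0.40, adjusted p = 0.0122). That fit called 6271 genes in all, and since the sets come from the counts under test, its calls are given only beside the others. The DOX effects showed no called difference between the lines among the 8 members tested (0 called by edgeR, 0 at an unadjusted p under 0.05 and 0 by DESeq2, against 5.43% of 16800 genes with a more positive and 3.76% with a more negative effect in LNCaP-AI). The widest of these intervals was that of HLA-C, from -0.19 to 5.10, with 0 to 16 counts in the DU-145 samples. HLA-C reached the filter of this fit only through LNCaP-AI, so its difference of effects is not read as a test. The DOX and baseline comparisons share the vehicle samples.

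**Figure D2:**
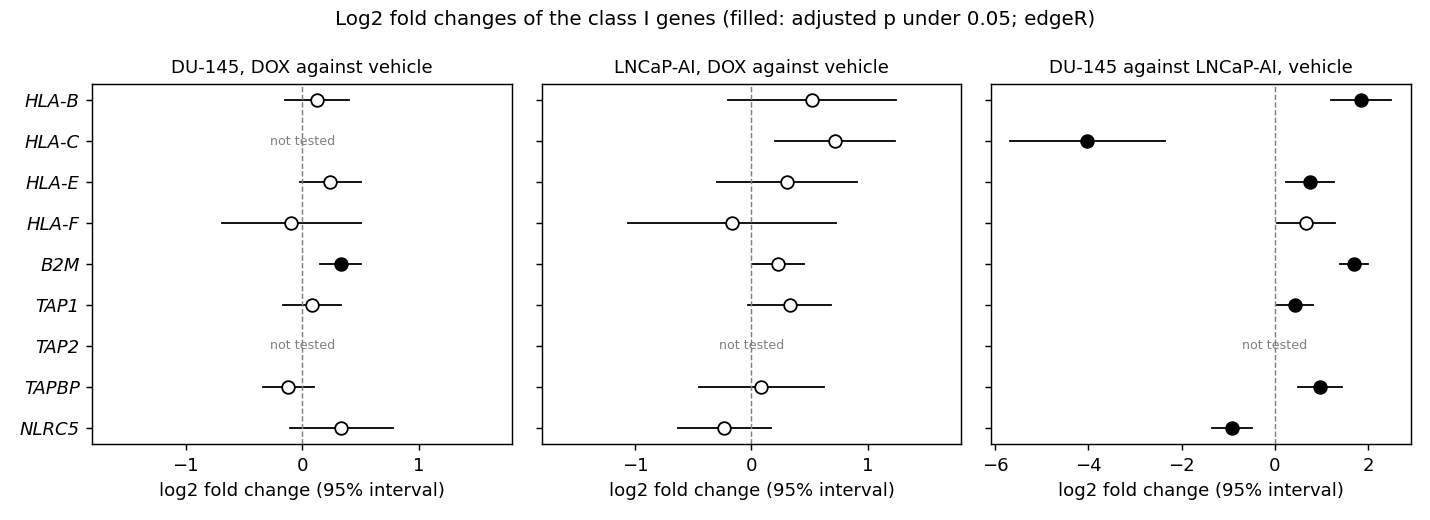
Log2 fold changes (points) with 95% intervals (lines) from edgeR for the 9 genes in 3 comparisons, filled where the adjusted p is under 0.05. With DOX only B2M in DU-145 is filled (0.33), whereas between the lines 7 of 8 tested genes are filled, from -4.02 for HLA-C (which passed the filter only through LNCaP-AI) to 1.85 for HLA-B; the rightmost panel has a wider axis.

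Within set 1 and set 2 of the LNCaP-AI samples, the log2 difference of DOX from vehicle (on mean CPM plus 0.05) was 0.53 and 0.69 for HLA-C, 0.61 and 0.43 for HLA-E, 0.47 and 0.40 for TAP1, and 0.33 and 0.29 for B2M. For HLA-B these values were 0.09 and 0.79. The class I genes themselves lay mostly across the division. HLA-B was the only 1 of 8 members whose CPM did not overlap between the sets, at 4.11 to 4.74 in set 1 and 2.03 to 4.07 in set 2, while 35.2% of the 16030 genes tested did not overlap. Most of the listed genes of the immunoproteasome, which cuts peptides suited to class I grooves, lay apart between the sets. PSMB8 had 0.169 to 0.402 CPM in set 1 and 4.23 to 5.07 in set 2, and PSMB9 had 0.0446 to 0.395 and 0.730 to 1.47. ERAP2, an aminopeptidase that trims peptides in the endoplasmic reticulum, had 1.25 to 2.42 CPM in set 1 and 16.2 to 17.8 in set 2, and the kinase JAK1 had 3.97 to 4.80 and 32.8 to 37.2. PSME1 and PSME2, the proteasome activator subunits, were also apart, while PSMB10 overlapped (1.12 to 2.14 CPM in set 1 and 1.71 to 2.12 in set 2). In all, 4 of 5 immunoproteasome genes did not overlap, beside 35.2% of all genes. PSMB8 and PSMB9 reached the filter on low counts only through set 2. The sets come from these same counts, so the gaps are a description and not a test. Vehicle and DOX samples were found in each set, and these gaps do not follow the treatment.

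**Figure D3:**
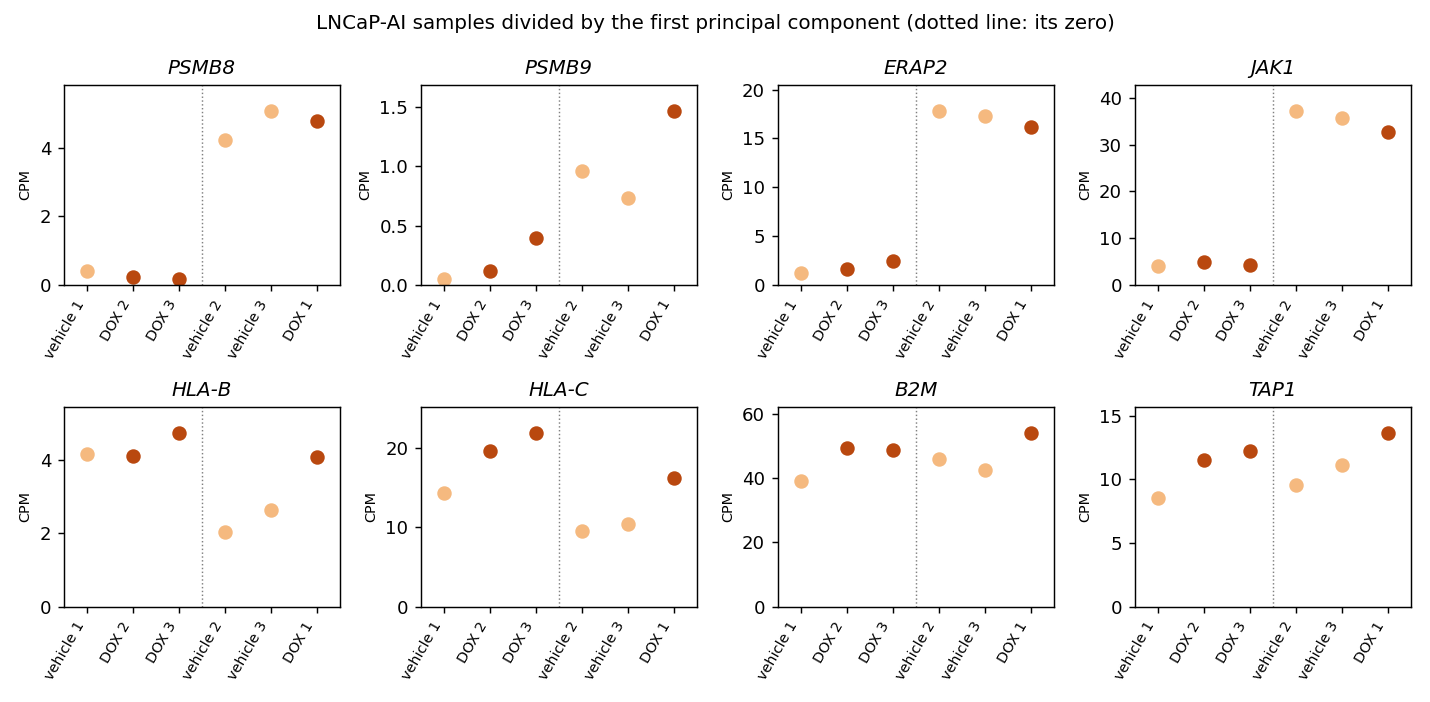
CPM of 8 genes in the 6 LNCaP-AI samples, with set 1 (vehicle 1, DOX 2, DOX 3) left and set 2 (vehicle 2, vehicle 3, DOX 1) right of the dotted line; light points are vehicle and dark points DOX. PSMB8, PSMB9, ERAP2 and JAK1 are higher in all samples of set 2, whereas HLA-C, B2M and TAP1 are higher with DOX within each set.

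Scaled by transcript length (CPM per kb of the canonical transcript), the order of the mean levels in DU-145 vehicle samples was B2M (142 ± 17.6, SD), TAPBP (6.85 ± 0.906), HLA-B (6.77 ± 0.218), TAP1 (4.79 ± 0.460), HLA-E (3.71 ± 0.261), HLA-F (1.34 ± 0.209), NLRC5 (0.501 ± 0.0333) and HLA-C (0.444 ± 0.436). The neighbours TAPBP and HLA-B, and NLRC5 and HLA-C, differed by less than their spread. In LNCaP-AI vehicle samples the order was B2M (45.0 ± 3.63), HLA-C (7.42 ± 1.66), TAP1 (3.63 ± 0.492), TAPBP (3.59 ± 0.920), HLA-E (2.27 ± 0.551), HLA-B (1.91 ± 0.710), NLRC5 (0.975 ± 0.108) and HLA-F (0.863 ± 0.174). Of these neighbours, TAP1 and TAPBP, HLA-E and HLA-B, and NLRC5 and HLA-F were within their spread. Among the heavy chains measured here, HLA-B had the highest level in DU-145 and HLA-C in LNCaP-AI, with the part of alleles that differ from the reference not tested. On this scale B2M exceeded 97.3% of 16657 genes in DU-145 vehicle samples and 90.4% in LNCaP-AI vehicle samples, whereas NLRC5 exceeded 21.0% and 24.1%.

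**Figure D4:**
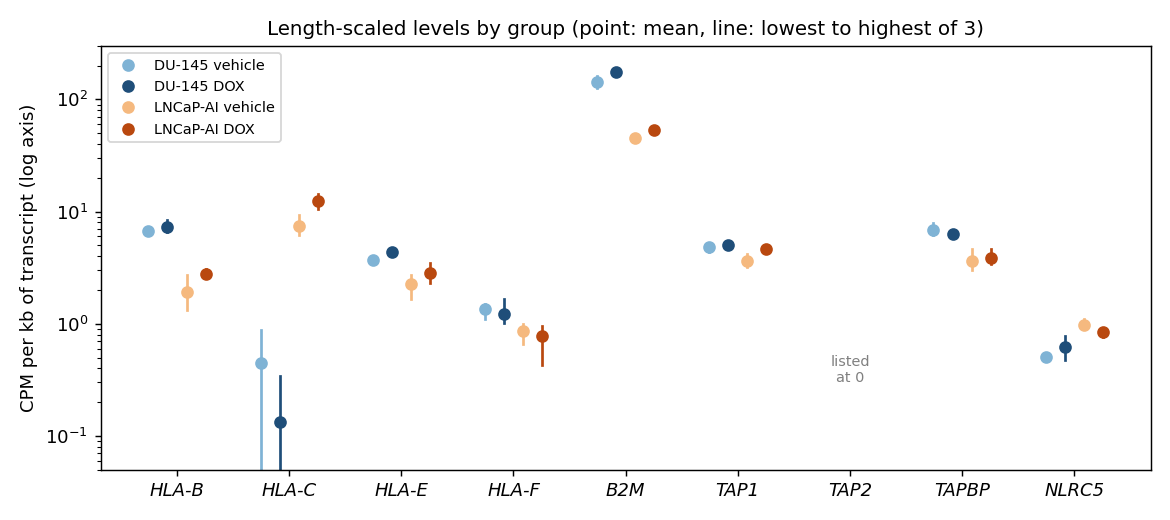
Levels in CPM per kb of transcript on a log axis for the 4 groups, with points for the mean of 3 samples and lines from the lowest to the highest. B2M is the highest gene in every group (45.0 to 177), HLA-C falls from second in LNCaP-AI to last in DU-145, and its lines in DU-145 run to the lower edge because 1 sample of each group has 0 counts.

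Of 6 peptide loading and trimming genes, DOX in DU-145 raised CALR, the calreticulin chaperone (log2 fold change 0.25, adjusted p = 0.00599), and lowered ERAP1 (-0.21, adjusted p = 0.0192) and ERAP2 (-0.41, adjusted p = 0.000245). Of all genes in that comparison, 26.3% rose and 25.3% fell, so these calls are near the share of all genes. The ERAP1 call was lost without DU-145 DOX 2 or DOX 3 (adjusted p = 0.0857 and 0.0980). In LNCaP-AI edgeR called 1 of the 6, TAPBPL, a tapasin-related peptide editor, which rose (0.89, adjusted p = 0.0257), beside 7.22% of all genes higher and 5.52% lower. Of the 6, 4 had an unadjusted p under 0.05 in edgeR, and DESeq2 called 3 (TAPBPL, PDIA3 and CALR). ERAP1 had 33.3, 33.2 and 32.2 CPM in LNCaP-AI vehicle samples and 38.3, 37.9 and 38.1 with DOX, and its DOX effect differed between the lines by 0.43 (95% interval 0.23 to 0.63, adjusted p = 0.0176). For this difference edgeR called only ERAP1 of the 6, beside 5.43% of 16800 genes more positive and 3.76% more negative in LNCaP-AI. DESeq2 called 3 of the 6 (TAPBPL, ERAP1 and PDIA3). PSMB9 was the only 1 of 5 immunoproteasome genes called with DOX in DU-145, where it fell from 3.28, 3.44 and 2.52 CPM to 1.42, 1.97 and 1.51 (log2 fold change -0.89, adjusted p = 0.00713), beside 25.3% of all genes lower. In LNCaP-AI 0 of 5 were called by edgeR, at an unadjusted p under 0.05 or by DESeq2. At the share of all genes called there by edgeR, 0 of 5 is no result about these genes. At baseline 4 of the 6 loading genes and 2 of the 5 immunoproteasome genes were higher in DU-145 (30.2% of all genes were). CALR was lower (-0.50, adjusted p = 0.00313, beside 35.0% of all genes), and ERAP1 was at 1.47 (adjusted p = 1.26e-05). PSMB9, 1 of the 2, had 1, 18 and 21 counts in LNCaP-AI vehicle samples and 40, 34 and 30 in DU-145. It reached the filter on low counts only with DU-145, where it was high, and is not read as tested. ERAP2, 1 of the 4, had 1.25 CPM in LNCaP-AI vehicle 1 (set 1) and 17.8 and 17.3 in vehicles 2 and 3 (set 2). Of these baseline calls, PDIA3 was lost without LNCaP-AI vehicle 3 (adjusted p = 0.0947), and PSME2 without LNCaP-AI vehicle 2 or any 1 of the DU-145 vehicle samples (adjusted p from 0.0918 to 0.147).

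The DNA-binding partners of NLRC5 were called in both directions. In DU-145, 4 of 8 fell with DOX (NFYA, NFYB, RFXAP and RFX5) and 2 rose (RFXANK and NFYC), beside 25.3% and 26.3% of all genes, with a median log2 fold change of -0.25. NFYB, a subunit of the factor that binds the Y box, had 80.4, 83.8 and 81.3 CPM with vehicle and 46.7, 41.8 and 47.9 with DOX, a log2 fold change of -0.84 (SE 0.0760, adjusted p = 3.13e-08). In LNCaP-AI 0 of the 8 passed in edgeR, beside 7.22% of all genes higher and 5.52% lower, a share at which 0 of 8 is no result about these genes. Of the 8, 3 had an unadjusted p under 0.05 in edgeR, and DESeq2 called 2 of them. NFYB was at -0.61 (adjusted p = 0.0945) and RFXAP at -0.62 (adjusted p = 0.063), both with all DOX samples below all vehicle samples. Of the interferon pathway genes in DU-145, 3 of 10 tested fell and 2 rose, shares close to those of all genes, with a median of -0.07. IFNGR1, the ligand-binding chain of the interferon gamma receptor, went from 43.1, 45.0 and 49.6 CPM to 15.6, 16.9 and 15.3 (log2 fold change -1.52, SE 0.0928, adjusted p = 1.66e-10). JAK2, a kinase bound to that receptor, fell by 0.62 and IFNAR2, a chain of the type I interferon receptor, by 0.51, while JAK1 (0.49) and STAT2 (0.32) rose. In LNCaP-AI 0 of the 11 passed in edgeR, again beside 7.22% and 5.52% of all genes, which is no result about these genes. Of the 11, 4 had an unadjusted p under 0.05 and DESeq2 called 2 (IFNGR1 and IFNGR2). At baseline 6 of the 11 interferon pathway genes were higher in DU-145, beside 30.2% of all genes. JAK1, 1 of the 6, had 3.97 CPM in LNCaP-AI vehicle 1 (set 1) and 37.2 and 35.8 in vehicles 2 and 3 (set 2). Its baseline interval ran from 1.13 to 4.40. IRF9, with 4 to 8 counts in DU-145 vehicle samples and 21 to 31 in LNCaP-AI, passed the filter only through LNCaP-AI and is not read as tested. IRF1, itself an activator of class I promoters, was higher by 2.51 (adjusted p = 0.000227). Among 5 NF-kB subunits, NFKB2 rose with DOX in DU-145 (0.45, adjusted p = 3.43e-05), beside 26.3% of all genes. In LNCaP-AI 0 of the 5 passed by edgeR, at an unadjusted p under 0.05 or by DESeq2, which at the shares given is no result about these genes. At baseline NFKB2, RELB and REL were higher in DU-145, beside 30.2% of all genes. RELB had 1.52 CPM in LNCaP-AI vehicle 1 (set 1) and 4.55 and 7.61 in vehicles 2 and 3 (set 2). The baseline call of REL was lost without DU-145 vehicle 3 or LNCaP-AI vehicle 2 (adjusted p = 0.0576 and 0.0634).

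The class I-like molecules, relatives of the heavy chains that do not present ordinary peptides, gave several calls with DOX in DU-145: 5 of 9 tested rose and 0 fell, beside 26.3% and 25.3% of all genes, with a median log2 fold change of 0.53 against 0.00 over all genes. MICB, a stress-induced ligand of the NKG2D receptor on natural killer cells, had 6.15, 5.16 and 5.46 CPM with vehicle and 12.3, 13.7 and 12.6 with DOX (log2 fold change 1.20, SE 0.138, adjusted p = 6.51e-07). Its relative MICA went from 7.25 ± 0.911 to 12.4 ± 0.660 CPM (mean ± SD, n = 3), without overlap (log2 fold change 0.78, adjusted p = 8.21e-05). ULBP3, another NKG2D ligand (0.73), MR1, which presents vitamin B metabolites (0.59), and HFE, a regulator of iron uptake (0.28), also rose, although MR1 was lost without vehicle 1 or vehicle 3 (adjusted p = 0.0532 and 0.0732) and HFE without vehicle 1 (adjusted p = 0.0716). In LNCaP-AI, MR1 rose from 10.7, 9.95 and 10.7 CPM to 20.3, 21.0 and 21.8 (log2 fold change 0.98, SE 0.106, adjusted p = 0.0123). The NKG2D ligands ULBP1 (-0.84, adjusted p = 0.0462) and ULBP2 (-1.01, adjusted p = 0.0202) fell there, and DESeq2 called HFE in addition to these 3. MICA was at 0.40 (adjusted p = 0.111), and MICB, at 0 to 0.134 CPM in set 1 and 1.39 to 2.26 in set 2, followed the division of the samples. The difference of the DOX effects passed for 0 of the 9 genes tested in edgeR and in DESeq2, with 1 (ULBP1) at an unadjusted p under 0.05. In a fit of all 12 samples, the DU-145 calls of MICB, HFE, PSMB9, ERAP2, RFX5 and JAK1 were lost (adjusted p from 0.126 to 0.792). Epithelial markers, summed, went from 869 to 934 CPM to 1999 to 2133 CPM with DOX in DU-145, and their part in these changes was not tested.

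**Figure D5:**
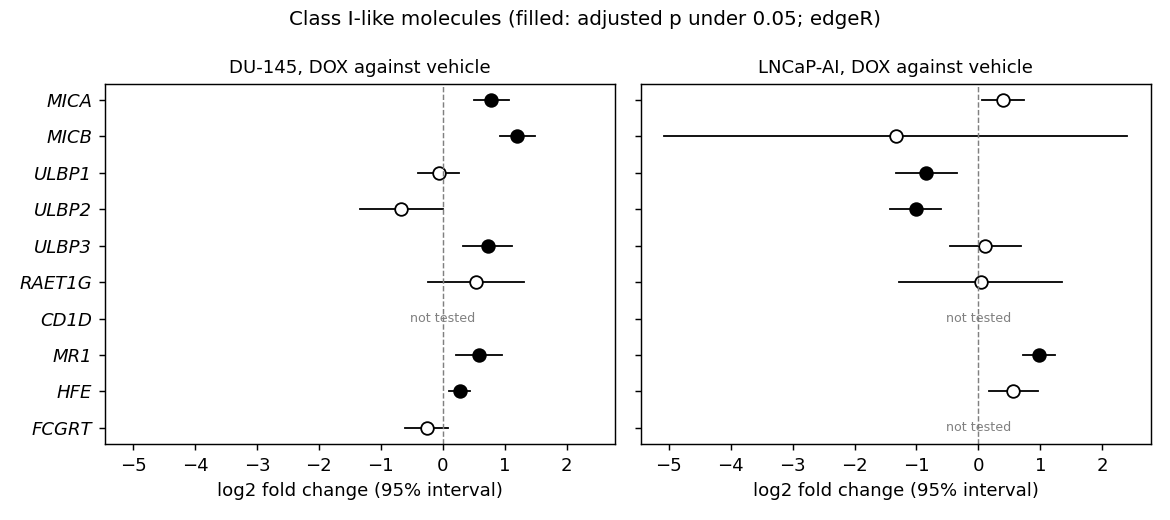
Log2 fold changes with DOX (points) and 95% intervals (lines) from edgeR for 10 class I-like molecules in each line, filled where the adjusted p is under 0.05. MICA, MICB, ULBP3, MR1 and HFE are filled and above 0 in DU-145; MR1 is filled above 0 and ULBP1 and ULBP2 below 0 in LNCaP-AI.

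MHC class II genes, which serve CD4 T cells and use the same promoter boxes through CIITA, were mostly near the floor. HLA-DQB1 rose in both lines, from 2.05, 2.63 and 1.68 CPM to 4.44, 5.12 and 3.64 in DU-145 (log2 fold change 1.08, adjusted p = 0.000683) and from 3.70, 1.87 and 2.08 to 7.25, 9.03 and 8.85 in LNCaP-AI (1.68, adjusted p = 0.0247). HLA-DMA, which loads class II molecules, rose in LNCaP-AI (1.17, adjusted p = 0.0375). Of the LNCaP-AI calls named here, TAPBPL, MR1, ULBP1, ULBP2, HLA-DQB1 and HLA-DMA were all lost without DOX 2 (adjusted p from 0.0854 to 0.177) and without DOX 3 (from 0.0829 to 0.153), when 1 gene of all those tested was called in either case. The HLA-DMA call was also lost without vehicle 1 or 3, that of ULBP1 without vehicle 1, vehicle 2 or DOX 1, that of TAPBPL without vehicle 2 and that of HLA-DQB1 without vehicle 3 (adjusted p from 0.0505 to 0.0875). CIITA had 3 to 9 counts in the DU-145 vehicle samples and 25 to 54 in LNCaP-AI vehicle samples, and reached the filter only through LNCaP-AI, so no test is given for it.

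The genes whose levels most resembled those of 4 members over the 12 samples, after centring each line at its mean, are given as a description. HLA-B was most like EVI5L (Pearson r = 0.973), AGFG2 (0.964) and SRSF9 (0.959), and B2M most like CFAP68 (0.979), RCL1 (0.973) and GTF2B (0.970). TAP1 was most like BAX (0.955), CYTH2 (0.918) and TRIM38 (0.913), and NLRC5 most like PLIN4 (0.852), RBM33 (0.851) and VPS53 (0.849). These were the highest of 14275 genes, and the samples share library depth and, in LNCaP-AI, the division into sets. Among the 8 members the 28 pairwise correlations ran from -0.252 to 0.814 with a median of 0.108. HLA-E and TAP1 were the closest pair (0.814), followed by HLA-E and B2M (0.712) and B2M and TAP1 (0.650), while NLRC5 had values between -0.252 and 0.140 with the other 7 members.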

How the data were processed

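RNA-seq covered 12 samples in 4 groups of 3. The labels describe cells cultured in triplicate without numbering separate cultures, so p-values measure the spread between these samples, which may be technical. Replicates of every group differed by more than counting noise (lowest chi-square per degree of freedom 2.38).

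According to the labels and methods, total RNA was made into TruSeq stranded mRNA libraries and processed with CASAVA 1.8.2 and STAR 2.7.0 on GRCh38.p7, and the authors' tests used DESeq2 1.24.0. The authors deposited raw counts per gene without normalization. The counting tool, its strand setting and its treatment of reads shared between genes are not given in the sources used here. Of 58037 identifiers, 56993 were matched to a symbol by Ensembl ID. Positions and transcript lengths come from GENCODE 44 on GRCh38, which may differ from the annotation the authors used. Promoters of 7 of the 9 genes were read from RefSeq (HLA-E and NLRC5 were not matched).

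Genes that reached 10 counts in 3 or more samples of a fit were tested with edgeR 4.0.16 (TMM, glmQLFit, glmQLFTest) in R 4.3.3, over all genes, with Benjamini-Hochberg adjustment and a threshold of 0.05. DOX was compared with vehicle within each line, the lines were compared on their vehicle samples, and the difference of the DOX effects was tested as an interaction over 12 samples. The 95% intervals and standard errors were obtained from F and the fold change. The fits were also run on simulated counts drawn without the division of the LNCaP-AI samples. How the fits behave under that division was therefore not tested by them. Floors cover counting error only, since the counts carry no molecular identifiers.

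Alternatives were DESeq2 1.42.0, its size factors, upper-quartile normalization, 2 other filters, 1 fit of all samples, the replicate number as a block, the set on the first principal component as a covariate, and leaving out each sample. The genes, lists and alternatives were chosen with earlier results of these data known. Genes named are the 9 members, MUC1, listed pathway genes and, for HLA-B, B2M, TAP1 and NLRC5, the 3 other genes of highest correlation. Replicate numbers did not pair samples. For this, the log2 CPM of each gene was centred on its group mean, and same-numbered vehicle and DOX samples were then correlated. These correlations of what remained were 0.139, -0.0996 and 0.0846 in DU-145 and -0.944, -0.823 and -0.852 in LNCaP-AI. Some listed genes are not reported here.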

Additional observations from a re-analysis of the deposited data

Results flagged for a closer look

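ERAP1, the aminopeptidase that trims peptides for class I molecules, differed between the lines in its response to DOX by 0.43 on the log2 scale (LNCaP-AI minus DU-145, edgeR interaction, adjusted p = 0.0176). ERAP1 was the only 1 of the 6 peptide loading and trimming genes called there by edgeR. Of all 16800 genes, 5.43% had a more positive and 3.76% a more negative effect in LNCaP-AI. It fell by 0.21 in DU-145, with all 3 DOX samples below all vehicle samples, and was 0.18 higher in LNCaP-AI without passing there (adjusted p = 0.143), with all 3 DOX samples above. The difference did not pass without a filter on low counts (adjusted p = 0.159).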

How the results depend on the processing

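The count of members called in DU-145 with DOX was 1 (B2M, called under all 13 alternatives) and 2 with no filter, where HLA-C was added (log2 fold change -1.69, adjusted p = 0.0476, on 0 to 16 counts a sample). In LNCaP-AI it was 0, but 1 (HLA-C) with DESeq2, 4 with the set as a covariate, and 0 to 1 when a sample was left out. For the difference of the DOX effects it was 0, but 1 (HLA-C, 2.31, adjusted p = 0.0313) with the set as a covariate. The cause of these shifts was not tested. HLA-C reached the filter of that fit only through LNCaP-AI, and the sets come from the counts under test, so this call is a description and not read as a test. Of the members' log2 values under the alternatives, 88 of 91 in DU-145, 101 of 112 in LNCaP-AI, 89 of 104 between the lines and 139 of 152 for the difference of effects kept direction and side of the threshold. Between the lines 14 were lost, all of TAP1 or HLA-E, and none turned. Direction turned for the difference of effects of HLA-F, -0.02, which was 0.0012 with DESeq2, 0.0025 with its size factors, 0.035 with upper-quartile normalization and 0.12 with the set as a covariate. Leaving out a sample also turned small values that did not pass: from -0.014 to 0.15 for TAP1 and from -0.37 to 0.027 for HLA-F in DU-145, from -0.036 to 0.30 for TAPBP and from -0.32 to 0.13 for HLA-F in LNCaP-AI, and for the differences of effects from -0.21 to 0.27 for HLA-F, -0.16 to 0.016 for B2M and -0.088 to 0.24 for HLA-E. With a block for the replicate number, the members called were 1, 0, 6 and 0 in the 4 comparisons. That block left 0 of all LNCaP-AI genes called by edgeR (2909 at an unadjusted p under 0.05), 3 of 6 DU-145 samples correlated best with their own number and 0 of 6 LNCaP-AI samples did, so the numbers were not read as pairs. Over all genes, the calls in DU-145 numbered 7033, and 4083 in a fit of all 12 samples. In LNCaP-AI they numbered 2043, but 3517 with DESeq2, 3933 in a fit of all 12 samples, 6271 with the set as a covariate and 1 (without DOX 2 or DOX 3) to 3538 when a sample was left out. For the difference of effects they numbered 1543, but 884 without a filter, 52 with the block, 4109 with the set as a covariate and 737 to 3471 when a sample was left out. Depth limits HLA-C in DU-145, HLA-F and NLRC5, with at most 16, 31 and 67 counts in a DU-145 sample.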
